A study of Mus musculus with 6 samples.

Results

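Fatty acids are built in the cytosol from acetyl-CoA, and the 37 genes described here encode the steps of that pathway in mouse OL precursor cells (mOPCs) together with the esterification of the products into glycerolipids. They were chosen by symbol, as the genes of de novo synthesis, desaturation, elongation, activation, binding and glycerol esterification, out of the 23038 genes in the deposited tables, and all 37 were found. Of these, 34 passed the filter on low counts and were tested. Acacb, Fabp3 and Agpat2 did not pass it.

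The mOPCs were primary cells purified by immunopanning from mouse embryos (E14.5), whose strain and sex are not given in the sources used here, and poly-A RNA was sequenced from 6 cultures. The 3 siNC libraries came from cells transfected with control siRNA and the 3 siQk libraries from cells transfected with siRNAs against Qk, the gene of the quaking RNA-binding proteins. The labels name 3 biological replicates and 3 different Qk siRNAs, but do not state which siRNA each siQk library received. The siRNAs lower Qk rather than delete it, and all Qk isoforms are counted together. The question was which transcripts change in level when Qk is knocked down. Library depth ranged from 58166490 to 141045937 tags, with the lowest depth in siNC replicate 1, where 3.11% of the tags fell on the ribosomal gene Rn45s (0.169% to 0.389% elsewhere).

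Levels are given as deposited RPKM (reads per kilobase of exon, scaled to the library total), in the order of replicates 1, 2 and 3. Log2 fold changes are siQk over siNC from the quasi-likelihood test of edgeR on the counts, with TMM scaling, their standard error (SE) and the Benjamini-Hochberg FDR over the 12505 genes tested. The text calls a gene changed where its P lay under 0.01 and its FDR under 0.1. The RPKM carry no TMM scaling, whose factors were 0.899 to 0.987 in siNC and 1.04 to 1.07 in siQk, so that a ratio of RPKM lies above the fitted fold change. Qk itself was at 209, 206 and 163 RPKM in siNC and 51.3, 76.6 and 36.2 RPKM in siQk, a log2 fold change of -1.98 (SE 0.28, FDR 0.00311, edgeR). The groups did not overlap.

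In this pathway ATP citrate lyase (Acly) and acetyl-CoA synthetase (Acss2) supply cytosolic acetyl-CoA, acetyl-CoA carboxylase (Acaca) makes malonyl-CoA, and fatty acid synthase (Fasn) joins the units into palmitate with NADPH, part of which comes from malic enzyme (Me1). Stearoyl-CoA desaturases (Scd1, Scd2) and the Fads enzymes then add double bonds, the Elovl enzymes lengthen the chain, acyl-CoA synthetases (Acsl) activate free fatty acids, and Gpam, the Agpat enzymes, the lipins and the Dgat enzymes attach the acyl chains to glycerol. Srebf1 encodes a transcription factor known to drive many of these genes. OLs make large amounts of such lipids for myelin, while Fabp5 and Fabp7 encode proteins that carry fatty acids in neural cells.

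Among the 34 tested genes 18 were called changed, 13 lower and 5 higher in siQk. That is 52.9% of those tested, beside 31.0% of all 12505 tested genes. The genes were chosen with earlier results of these data known, and no comparison with genes of similar level was made. Lower calls made up 38.2% of the 34, beside 17.2% of all tested genes, and higher calls 14.7%, beside 13.8%. The median log2 fold change was -0.32 over the 34 genes and 0.01 over all tested genes, and 25 of the 34 lay below 0. With library sizes alone as scaling, which moved the median of all tested genes to 0.16, 12 of the 34 were called lower and 6 higher, beside 1365 lower and 2989 higher of all tested genes. The fall was uneven along the pathway: the desaturases Scd1 and Scd2, the acyltransferases Dgat2 and Agpat3, the elongase Elovl7, malic enzyme and Fabp5 fell to between 32.3% and 51.9% of the siNC level, Fasn and Acaca were not called, and Acly, Elovl6, Acsl5 and Fabp7 rose. The plot of fold changes by step shows this spread. Without siNC replicate 1, the shallowest library, the median over the 34 genes was -0.21.

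**Figure D1:**
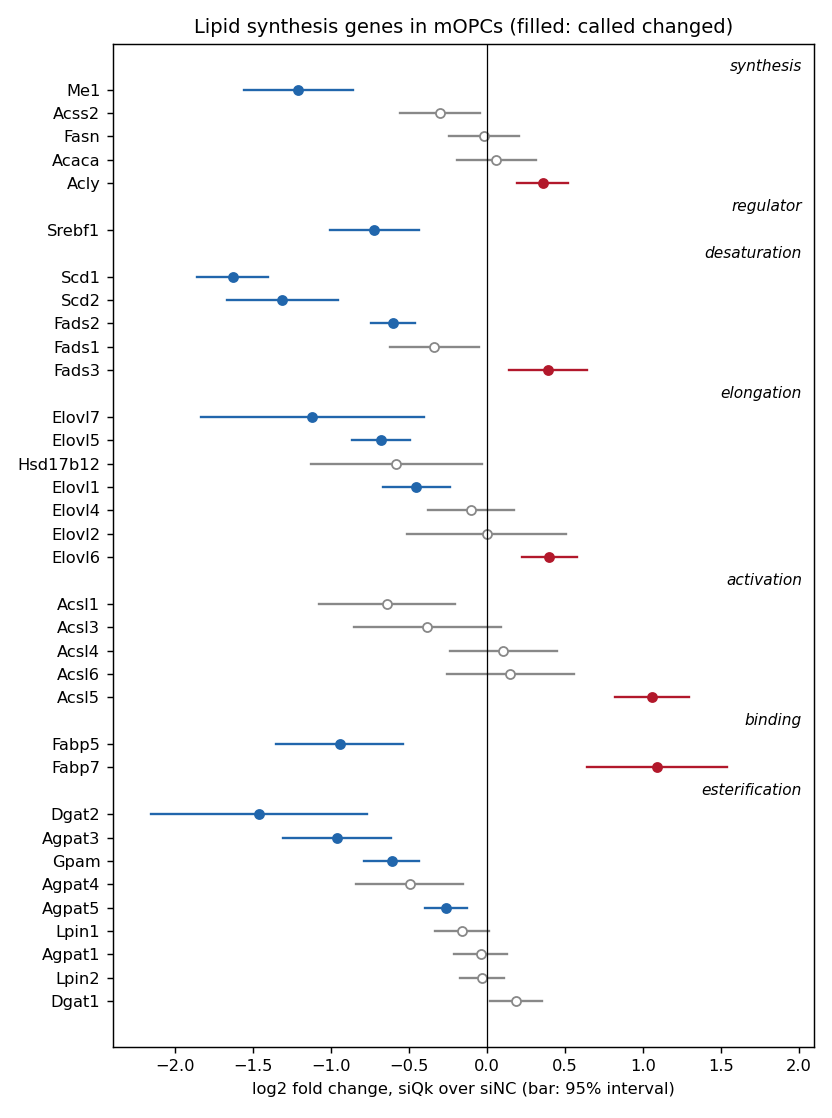
Log2 fold change in siQk over siNC (x axis) of the 34 tested genes (y axis), grouped by step, with the 95% interval as a bar and n = 3 libraries per group. Filled blue points were called lower (13), filled red points higher (5) and open points were not called (16), and the lowest value is that of Scd1 at -1.63.

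Markers of other cells moved in the same libraries, where 17.2% of all tested genes were called lower and 13.8% higher. Of 12 mature OL genes 9 of the 11 tested were called lower, with a median log2 fold change of -1.98 and a summed level of 3455 to 6035 RPKM in siNC and 1466 to 2197 RPKM in siQk, and none was at 0 in every library. Of 10 OPC markers, which check the labelled cell type, 4 were called higher and 1 lower, with sums of 1049 to 1132 RPKM in siNC and 1268 to 1431 RPKM in siQk. Astrocyte markers were lower for 4 of 7 tested, with sums of 289 to 410 RPKM and 284 to 307 RPKM. Gfap (mean 69.1 RPKM in siNC) fell to 13.0% of siNC and Aldh1l1 to 21.6%, and Slc1a3 and Slc1a2 were also called lower. S100b and Aldoc, at means of 140 and 94.9 RPKM in siNC, were not called, nor was Aqp4. The astrocyte connexin gene Gja1 was at or near 0. Of 7 tested neuronal markers 3 were called higher, Snap25, Nefl and Syn1 (log2 fold changes 2.64, 1.61 and 0.83), and none lower. The neuronal sums, 111 to 184 RPKM in siNC and 102 to 142 RPKM in siQk, were mostly Tubb3 (mean 123 RPKM in siNC). Tubb3 was not called (-0.57). Summed levels reached 3.30 RPKM for microglial, 5.10 RPKM for fibroblast and vascular, and 0.486 RPKM for adipocyte markers. P2ry12, the only microglial marker tested, was called lower (log2 fold change -3.16, FDR 0.00886, edgeR), with means of 1.69 RPKM in siNC and 0.208 RPKM in siQk. The part of these cells in the values below was not tested, and in bulk RNA fewer cells of a type and less RNA per cell cannot be told apart.

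Of the 5 desaturase genes 3 were called lower (60%, beside 17.2% of all tested genes) and 1 higher (20%, beside 13.8%). Their levels summed to 1078 ± 138 RPKM in siNC and 541 ± 15.4 RPKM in siQk (SD, n = 3 each), a sum made up mostly of Scd2 (means of 795 and 357 RPKM). Scd1, which puts the first double bond into stearate and palmitate, was at 115, 104 and 101 RPKM in siNC and 39.1, 37.8 and 37.9 RPKM in siQk. The libraries of each group lay close together and far from the other group, with a log2 fold change of -1.63 (SE 0.10, FDR 0.000365), which leaves 32.3% of the siNC level. Scd2, the main desaturase of the brain, was at 930.1, 686 and 769 RPKM in siNC and 346, 357 and 368 RPKM in siQk. All siQk libraries lay below all siNC libraries and siNC replicate 1 was the highest, and the log2 fold change was -1.31 (SE 0.15, FDR 0.00174), or -1.14 without that library. Scd1 and Scd2 lie in 1 cluster with Scd3 and Scd4 on chromosome 19 (GRCm38, chr19:44203288-44407709). Scd3 (mean 0.888 RPKM in siNC) and Scd4 (0.670 RPKM) were also called lower, but reads could be shared with their abundant neighbours, so that their values are uncertain.

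The Fads genes, which desaturate polyunsaturated fatty acids, lie together on the same chromosome (chr19:10040855-10196874) and moved in different directions. Fads2, the delta-6 desaturase, was at 84.1, 86.7 and 85.8 RPKM in siNC and 61.7, 63.2 and 62.7 RPKM in siQk. The spread within each group was small beside the gap, with a log2 fold change of -0.60 (SE 0.06, FDR 0.00109). Fads1, the delta-5 desaturase, was at 97.1, 82.2 and 80.0 RPKM in siNC and 73.6, 73.5 and 81.5 RPKM in siQk, so that the groups overlapped, and it was not called (log2 fold change -0.34, 95% interval -0.63 to -0.05, FDR 0.0656, edgeR). Fads3 was the least abundant, at 4.64, 5.03 and 4.34 RPKM in siNC and 6.64, 6.43 and 7.33 RPKM in siQk. It was called higher (log2 fold change 0.39, SE 0.10, FDR 0.0266), a call that ended when any single library but siNC replicate 2 was left out.

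**Figure D2:**
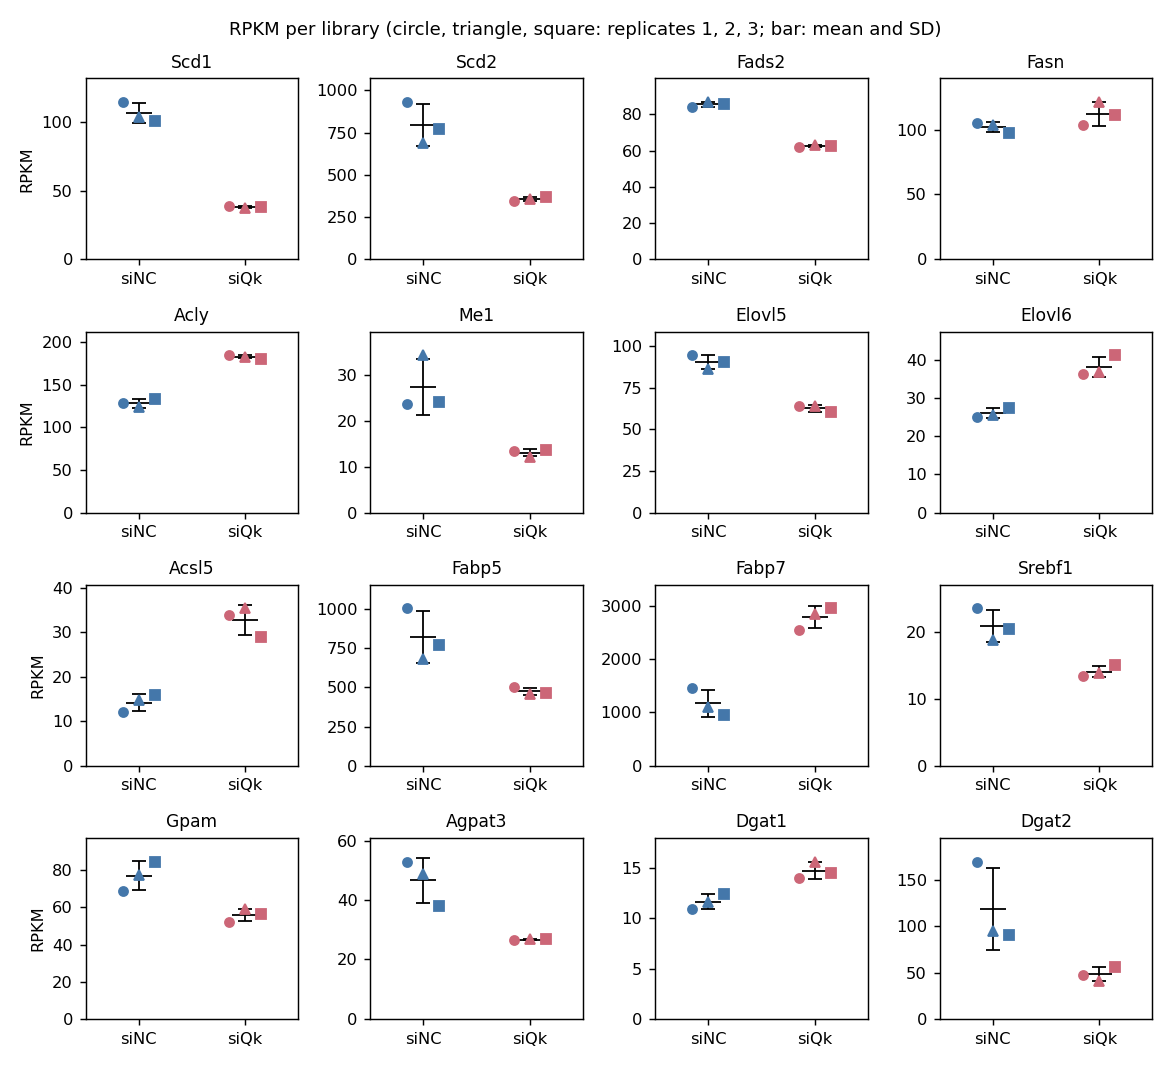
RPKM (y axis, from 0) of 16 of the genes in the siNC and siQk libraries (x axis), with circles, triangles and squares for replicates 1, 2 and 3 and a bar for the mean and SD of 3 libraries. The groups overlap for Fasn and stay apart for the others, of which Dgat1 was not called, and siNC replicate 1 stands high for Scd2, Fabp5 and Dgat2. These RPKM carry no TMM scaling, and the share of all genes whose groups stay apart was not counted.

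The steps that make palmitate did not move as a block. Fasn was at 105, 103 and 97.4 RPKM in siNC and 103, 121 and 111 RPKM in siQk. The groups overlapped, and the log2 fold change of -0.02 had a 95% interval of -0.24 to 0.21 (FDR 0.891, edgeR). Acaca, which makes the malonyl-CoA that Fasn uses, was at 11.3, 12.2 and 9.86 RPKM in siNC and 12.2, 12.7 and 13.7 RPKM in siQk, a log2 fold change of 0.06 with an interval of -0.19 to 0.31. Neither of these genes was called under any of the 14 alternative settings. Acly, which cleaves citrate to acetyl-CoA, was at 128, 123 and 134 RPKM in siNC and 185, 183 and 181 RPKM in siQk. It was called higher, with groups far apart and a log2 fold change of 0.36 (SE 0.07, FDR 0.00918). Acss2, which makes acetyl-CoA from acetate, was at 8.90, 7.61 and 8.55 RPKM in siNC and 7.34, 6.95 and 8.29 RPKM in siQk. Its groups overlapped and it was not called (log2 fold change -0.30, 95% interval -0.56 to -0.05, FDR 0.0666).

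Me1, the malic enzyme of the cytosol, moved the other way from Acly. It was at 23.7, 34.4 and 24.1 RPKM in siNC and 13.5, 12.2 and 13.6 RPKM in siQk. Replicate 2 was the highest of siNC, yet no siQk library reached any siNC library, and the log2 fold change was -1.21 (SE 0.15, FDR 0.00206). Summed over the 6 genes of de novo synthesis the level was 277 ± 3.47 RPKM in siNC and 329 ± 7.51 RPKM in siQk, a sum carried by Acly and Fasn. The sum carries no TMM scaling, and part of its rise comes from Fasn, whose fitted log2 fold change was -0.02. Acacb, the mitochondrial acetyl-CoA carboxylase, was at 0.130 RPKM or less in every library.

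Srebf1 was called lower. It was at 23.6, 18.8 and 20.4 RPKM in siNC and 13.4, 13.8 and 15.1 RPKM in siQk, and the groups did not overlap. The log2 fold change was -0.73 (SE 0.12, FDR 0.00541), and the call held under all 14 alternatives. Of 8 other tested regulators of the pathway none was called by edgeR at the main setting, where 2 had an unadjusted P below 0.05. Of all tested genes 31.0% were called. Mlxip, the gene of a glucose-sensing transcription factor, singled out after its values were seen, had a log2 fold change of 0.33 (FDR 0.0453) and was called higher in 6 of the 14 alternatives, DESeq2 among them. Among the others Srebf2, the paralog known for cholesterol genes, had a log2 fold change of 0.10 (95% interval -0.17 to 0.38), Scap, the escort of both factors, 0.01 (-0.11 to 0.14) and Insig1, which holds them in the ER, -0.19 (-0.36 to -0.03, FDR 0.0673).

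Promoter sequence was examined for letters that factors of lipid genes are known to bind. RefSeq windows of 300 bases (GRCm38.p6, 250 before and 50 after the start) were matched for 30 of the 37 genes, 42 windows in all. Scd1, Scd2, Fads1, Fabp5, Agpat5, Dgat1 and Dgat2 had no entry. The sterol response element letters TCACNCCAC were found on either strand in 1 of the 42 windows (2.38%), that of Acsl1, and in 1.24% of all 32851 windows. The E-box CACGTG, which is its own reverse complement, was found in 3 windows (7.14%), beside 7.15% of all. The CCAAT letters of NF-Y sites were found in 22 windows (52.4%), beside 37.4% of all. No match of one motif overlaps a match of another in the windows printed here. The 250 bases before the start are shown for a gene that was not called, a gene that fell and a gene that rose, with the E-box and the CCAAT letters, on either strand, in capitals, so that a match on the minus strand of a window reads ATTGG. Fasn has 3 CCAAT matches, of which the last 2 share bases as CCAATTGG, Elovl5 has a CACGTG and 2 CCAAT matches, and Fabp7 has 2 CCAAT matches.
Fasn (chr11:120824548-120824797, minus strand): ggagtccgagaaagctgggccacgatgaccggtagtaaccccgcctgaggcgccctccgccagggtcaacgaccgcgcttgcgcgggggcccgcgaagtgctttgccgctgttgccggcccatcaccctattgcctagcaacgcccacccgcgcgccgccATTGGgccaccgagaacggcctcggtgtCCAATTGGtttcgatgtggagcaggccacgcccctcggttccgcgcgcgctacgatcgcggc
Elovl5 (chr9:77917115-77917364, plus strand): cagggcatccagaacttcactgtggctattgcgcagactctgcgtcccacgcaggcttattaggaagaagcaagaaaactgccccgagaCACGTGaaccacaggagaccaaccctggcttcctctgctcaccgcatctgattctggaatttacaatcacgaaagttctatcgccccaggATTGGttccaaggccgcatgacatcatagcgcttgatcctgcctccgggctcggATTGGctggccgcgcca
Fabp7 (chr10:57784673-57784922, plus strand): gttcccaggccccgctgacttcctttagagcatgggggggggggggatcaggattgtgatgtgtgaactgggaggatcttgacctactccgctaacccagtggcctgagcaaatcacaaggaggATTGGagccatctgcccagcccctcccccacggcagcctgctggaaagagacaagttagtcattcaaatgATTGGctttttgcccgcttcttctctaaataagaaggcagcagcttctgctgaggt

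Elongation was mixed as well, with 3 of 7 genes called lower (42.9%, beside 17.2% of all tested genes) and 1 higher (14.3%, beside 13.8%). Elovl5, the elongase of polyunsaturated chains whose promoter holds the CACGTG above, was at 94.6, 86.5 and 90.4 RPKM in siNC and 64.1, 64.0 and 60.4 RPKM in siQk. The groups lay well apart, with a log2 fold change of -0.68 (SE 0.08, FDR 0.00176). Elovl1, which lengthens very long saturated chains, was at 43.7, 41.9 and 42.2 RPKM in siNC and 34.0, 31.8 and 37.7 RPKM in siQk, again without overlap (log2 fold change -0.45, SE 0.09, FDR 0.01). Elovl7 was more scattered, at 62.6, 46.9 and 37.6 RPKM in siNC and 26.1, 16.8 and 32.8 RPKM in siQk. Its log2 fold change was -1.12 (SE 0.30, FDR 0.0272), and the call ended without siNC replicate 1 (-0.86), siNC replicate 2 (-1.17), siQk replicate 1 (-1.15) or siQk replicate 2 (-0.89). Elovl6, which extends palmitate to stearate, was at 25.1, 25.6 and 27.5 RPKM in siNC and 36.4, 36.8 and 41.2 RPKM in siQk. It was called higher without overlap between the groups (log2 fold change 0.40, SE 0.07, FDR 0.00758).

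The other 3 elongation genes were not called. Hsd17b12, the ketoacyl reductase of the elongation cycle, ranged from 111 to 200.2 RPKM in siNC and from 107 to 124 RPKM in siQk, with siNC replicate 1 the highest, and its log2 fold change was -0.58 (95% interval -1.13 to -0.03) or -0.27 without that library. Without siNC replicate 2 it was called lower (-0.77, FDR 0.0302). Elovl4, with a log2 fold change of -0.10 (-0.38 to 0.17), ranged from 18.6 to 24.5 RPKM over the 6 libraries. Elovl2 was at 0.856 RPKM or less in every library. Of the partners of the elongases in the cycle, the reductase Tecr (log2 fold change -0.17) and the dehydratase Hacd3, listed under its older symbol Ptplad1 (-0.09), were not called, while the dehydratase Hacd2, listed as Ptplb, was called lower (-0.64, SE 0.13, FDR 0.0119).

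Among the acyl-CoA synthetases 1 of 5 was called, and it was higher (20%, beside 13.8% of all tested genes). Acsl5 was at 12.01, 14.8 and 15.8 RPKM in siNC and 33.8, 35.4 and 29.0 RPKM in siQk. Every siQk library was above every siNC library, and the log2 fold change of 1.06 (SE 0.10, FDR 0.000968) corresponds to 208% of the siNC level. Acsl3, an ER and lipid droplet enzyme and the most abundant of the family, was at 165, 101 and 148 RPKM in siNC and 121, 106 and 128 RPKM in siQk. Its groups overlapped and it was not called (log2 fold change -0.38, 95% interval -0.86 to 0.09), with -0.18 without siNC replicate 1 and a call at -0.57 without siNC replicate 2. Acsl1 missed the P threshold (log2 fold change -0.64, 95% interval -1.08 to -0.20, FDR 0.0337, edgeR), with 15.7 to 21.0 RPKM in siNC and 10.8 to 15.7 RPKM in siQk. Acsl4 (0.10, -0.24 to 0.45) and Acsl6 (0.15, -0.26 to 0.55) were not called either. The summed level of the 5 genes was 191 ± 29.2 RPKM in siNC and 188 ± 13.3 RPKM in siQk, and these overlapped.

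The fatty acid binding protein genes Fabp5 and Fabp7, with Scd2 the most abundant transcripts of the set, moved in opposite directions. Fabp5 was at 1005, 682 and 772 RPKM in siNC and 502, 458 and 467 RPKM in siQk. The siNC libraries were widely spread with replicate 1 on top, but none reached down to siQk, and the log2 fold change was -0.95 (SE 0.17, FDR 0.00725), or -0.72 without siNC replicate 1. Fabp5 has near-identical pseudogene copies, with which reads could be shared. Fabp7, the brain form that marks radial glia and precursor cells, was at 1453, 1101 and 955 RPKM in siNC and 2550.3, 2855 and 2952 RPKM in siQk. It rose without overlap by a log2 fold change of 1.09 (SE 0.19, FDR 0.00649), to 213% of siNC. Fabp3, the heart form, was between 0.698 and 1.33 RPKM and was not tested.

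**Figure D3:**
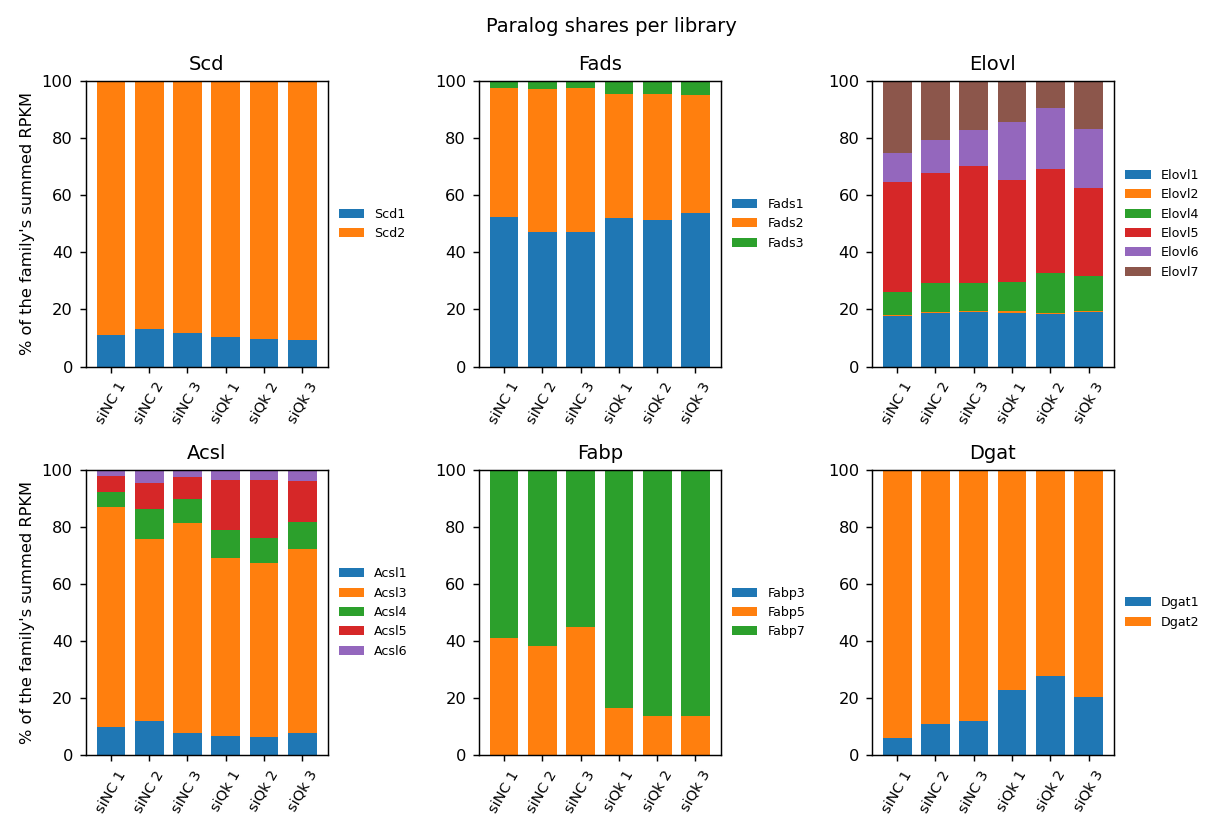
Share of each paralog in the summed RPKM of its family (y axis, %) in each of the 6 libraries (x axis), for 6 families. Fabp7 takes 58.7% on average in siNC and 85.3% in siQk, and the Elovl6, Acsl5 and Dgat1 bands are wider in every siQk library than in any siNC library.

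Shares within a family do not depend on the scaling of libraries, and they show which paralog dominated in each condition. They are given as mean ± SD of 3 libraries without a test. Fabp7 made up 58.7% ± 3.23 of the Fabp sum in siNC and 85.3% ± 1.56 in siQk, and Fabp5 most of the rest. Scd2 remained the main stearoyl-CoA desaturase, at 88.1% ± 1.10 and 90.3% ± 0.425. In the Elovl family Elovl6 went from 11.4% ± 1.19 to 20.8% ± 0.456, Elovl5 from 39.3% ± 1.64 to 34.3% ± 3.20 and Elovl7 from 21.1% ± 4.12 to 13.6% ± 3.61. For each of these the libraries of the groups did not overlap. Acsl5 went from 7.61% ± 1.89 to 17.5% ± 2.91 of the Acsl sum without overlap, while Acsl3, at 71.5% ± 6.82 and 62.6% ± 1.76, overlapped. Dgat1 went from 9.67% ± 3.19 to 23.6% ± 3.66 of the Dgat sum.

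Esterification to glycerol fell in part, with 4 of 9 tested genes called lower (44.4%, beside 17.2% of all tested genes). None was called higher by edgeR with TMM scaling or by DESeq2, where 1 of the genes above 0 had an unadjusted edgeR P below 0.05. Higher calls were 13.8% of all tested genes. Gpam, the mitochondrial enzyme of the first acylation, was at 68.9, 77.5 and 84.7 RPKM in siNC and 52.4, 59.1 and 56.3 RPKM in siQk. The groups did not overlap (log2 fold change -0.61, SE 0.07, FDR 0.00206). Agpat3, an enzyme of the second acylation, was at 52.9, 48.8 and 38.1 RPKM in siNC and at 26.5, 26.8 and 26.8 RPKM in siQk. The siQk libraries were nearly equal and all below siNC (log2 fold change -0.96, SE 0.14, FDR 0.00402). Agpat5 was at 20.5, 22.6 and 21.2 RPKM in siNC and 19.9, 20.2 and 19.4 RPKM in siQk, a narrow gap. Its log2 fold change of -0.26 (SE 0.06, FDR 0.0137) was the smallest among the called genes and was -0.11 and not called (FDR 0.224) with library sizes alone as scaling, and the call ended without any one of the siQk libraries.

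Dgat2, which adds the last acyl chain of triacylglycerol, was at 169.6, 95.1 and 90.3 RPKM in siNC and 47.6, 40.8 and 56.1 RPKM in siQk. All siQk libraries were below all siNC libraries, with siNC replicate 1 far above the other 2. The log2 fold change was -1.46 (SE 0.29, FDR 0.0102), or -1.06 without siNC replicate 1. Dgat1, an unrelated enzyme of the same step, was at 10.9, 11.6 and 12.4 RPKM in siNC and 13.99, 15.6 and 14.5 RPKM in siQk, which do not overlap in RPKM. Scaled by TMM its log2 fold change was 0.19 (95% interval 0.02 to 0.35, FDR 0.0765) and it was not called, while with library sizes alone it was called higher (0.34, FDR 0.0227). Lpin1, the phosphatidate phosphatase that precedes this step, was at 26.6, 25.5 and 30.2 RPKM in siNC and 26.7, 28.6 and 26.4 RPKM in siQk, with overlap and a log2 fold change of -0.16 (-0.33 to 0.01). Lpin2 (-0.03, -0.17 to 0.11) and Agpat1 (-0.04, -0.21 to 0.13) were not called, and Agpat4 missed the P threshold (-0.50, FDR 0.0351, edgeR). Agpat2 was at 0.374 RPKM or less in every library. The 10 genes summed to 410 ± 46.1 RPKM in siNC and 290 ± 13.5 RPKM in siQk.

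**Figure D4:**
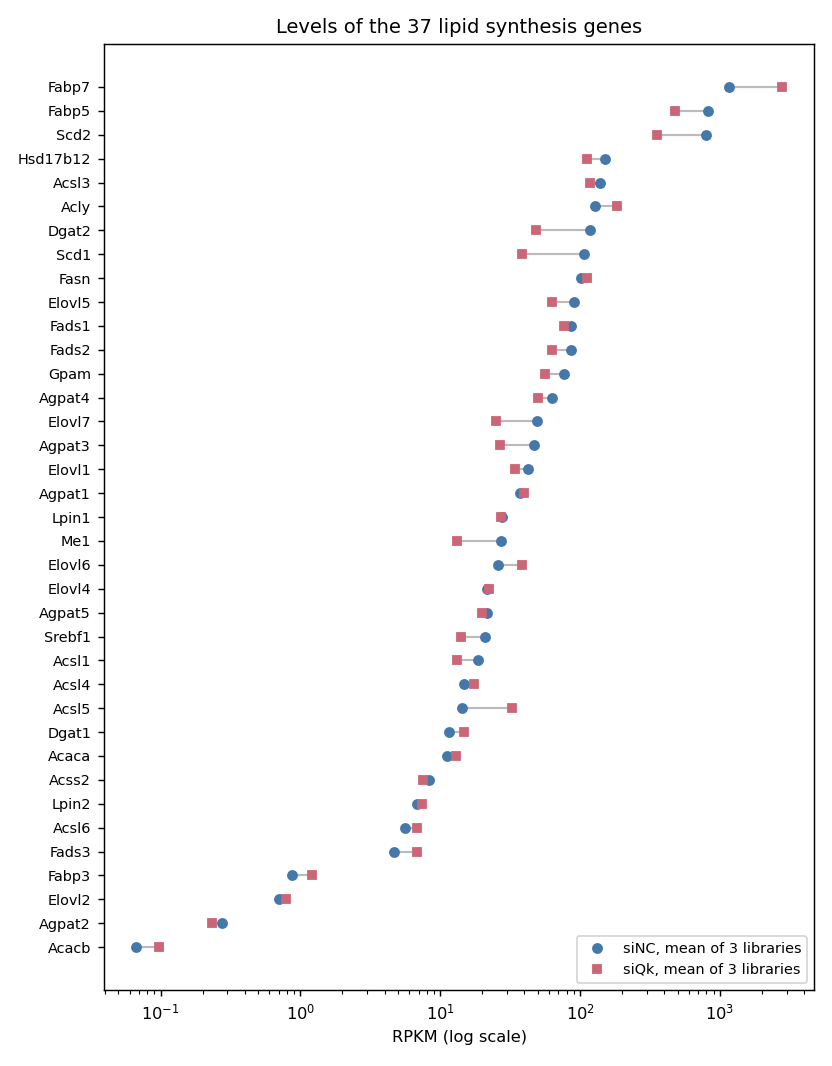
Mean RPKM (x axis, log scale) of the 37 genes (y axis, ordered by siNC level) in siNC (circles) and siQk (squares), n = 3 libraries each, joined by a line. Fabp7, Fabp5 and Scd2 hold the top 3 places in both groups, while Dgat2 moves from place 7 to 13 and Scd1 from place 8 to 15.

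Levels over the 37 genes ran from 0.0669 RPKM for Acacb to 1169 RPKM for Fabp7 in siNC. Fabp7, Fabp5 and Scd2 were the highest 3 in both groups. In siNC neighbouring ranges overlapped for these 3, and again from Hsd17b12 (151 RPKM) through Acsl3, Acly, Dgat2 and Scd1 to Fasn (102 RPKM). Ranges alone thus do not resolve the order of neighbours. Fabp7 was the highest of the 37 in each siNC library, and the siNC ranges of Hsd17b12 and Acly lay wholly above that of Fasn. In siQk Acly took place 4 (183 ± 1.97 RPKM), Dgat2 went from place 7 to 13 and Scd1 from 8 to 15.

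A wider list of 90 other lipid pathway genes covered the steps around these. Of the 72 tested 24 were called, 23 lower and 1 higher, which is 33.3%, beside 31.0% of all tested genes. Lower calls were 31.9% of the list, beside 17.2% of all tested genes, and higher calls 1.39%, beside 13.8%. The median log2 fold change of the list was -0.23, beside 0.01 over all tested genes. The split depends on the scaling, with 17 lower and 5 higher when library sizes alone were used and 20 lower and 4 higher with upper quartile factors. Fatty acid uptake and activation had 5 lower (50%) and 1 higher (10%) of 10 tested. Slc27a3, an acyl-CoA synthetase of the transport protein family, was the gene called higher, at 2.51, 3.38 and 3.29 RPKM in siNC and 8.33, 7.66 and 8.83 RPKM in siQk (log2 fold change 1.29, SE 0.12, FDR 0.000928). Slc27a6 of the same family fell, from 3.98, 3.16 and 4.11 RPKM to 1.42, 0.968 and 1.48 RPKM (log2 fold change -1.68, SE 0.21, FDR 0.00213). Acsbg1, a synthetase of very long chains in brain, fell by 1.17 on the log2 scale, and Dbi, the acyl-CoA binding protein, was at 2052, 2394 and 2529 RPKM in siNC and 1587, 1441 and 1370.5 RPKM in siQk (log2 fold change -0.81, SE 0.09, FDR 0.00159).

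**Figure D5:**
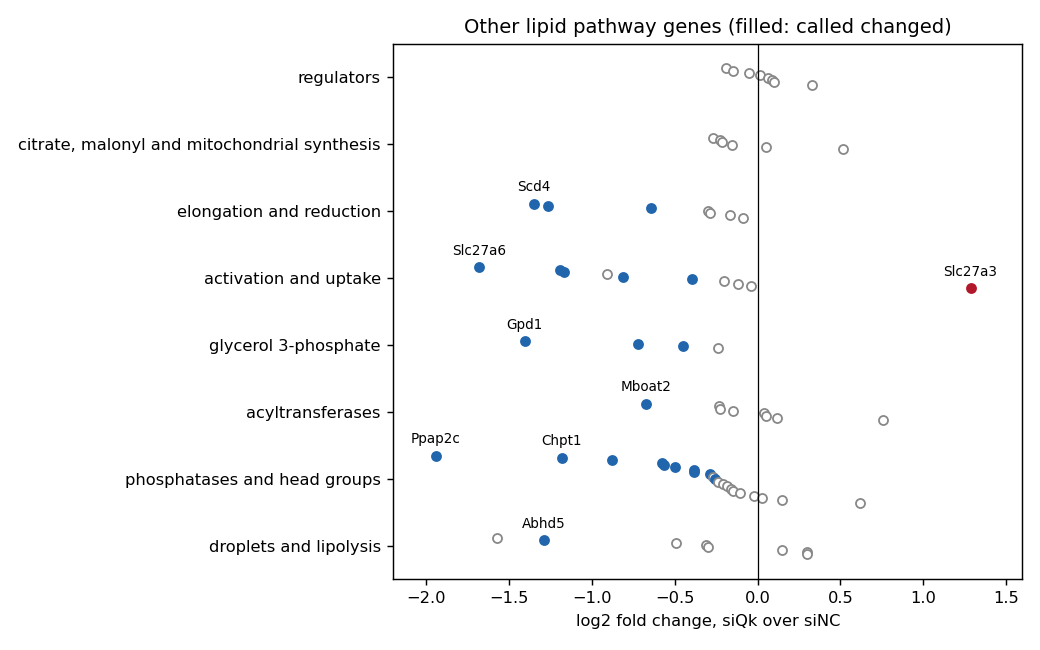
Log2 fold change in siQk over siNC (x axis) of the 72 tested genes of the wider lipid list, by step (y axis; the vertical offset within a step only separates points). Filled blue points were called lower (23), the filled red point higher (Slc27a3) and open points were not called (48), and Ppap2c has the lowest value at -1.94.

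The supply of the glycerol backbone and the branch to phospholipids were lower in part. Of 4 glycerol 3-phosphate genes 3 were called lower (75%, beside 17.2% of all tested genes), all of them dehydrogenases. Gpd1 was at 21.9, 20.7 and 13.4 RPKM in siNC and 7.79, 7.16 and 8.61 RPKM in siQk (log2 fold change -1.41, SE 0.21, FDR 0.00409), and Gpd1l fell by 0.72 and Gpd2 by 0.45 on the log2 scale. Of 21 phosphatases and head group enzymes 10 were called lower (47.6%, beside 17.2%). Plpp2, listed under its older symbol Ppap2c, had the lowest fold change of the list, at 2.17, 2.002 and 1.06 RPKM in siNC and 0.606, 0.343 and 0.549 RPKM in siQk (log2 fold change -1.94, SE 0.36, FDR 0.00809). Chpt1, which makes phosphatidylcholine, fell from 28.7, 35.0 and 25.1 RPKM to 15.3, 13.5 and 14.6 RPKM (log2 fold change -1.18, SE 0.13, FDR 0.00169). Among the others were Ptdss1, a phosphatidylserine synthase, Crls1, the cardiolipin synthase, and Cept1, with log2 fold changes of -0.57, -0.57 and -0.50.

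The called genes of the wider list with the smallest falls were Pgs1 and Ptdss2, at -0.29 and -0.26, whose RPKM ranges overlapped. Pgs1 was called in 6 and Ptdss2 in 7 of the 14 alternatives, and with library sizes alone their log2 fold changes were -0.14 and -0.11 without a call. Of 8 tested genes of lipid droplets and lipolysis 1 was called, and it was lower (12.5%, beside 17.2% of all tested genes). It was Abhd5, the coactivator of triacylglycerol lipase, at 34.6, 31.4 and 26.7 RPKM in siNC and 14.2, 15.3 and 12.8 RPKM in siQk (log2 fold change -1.29, SE 0.13, FDR 0.00126). Plin2, a lipid droplet coat protein, stayed low at 0.810 to 1.12 RPKM and was not called (-0.31, 95% interval -0.74 to 0.11). Slc25a1, which exports the citrate that Acly cleaves, was at 61.5, 58.1 and 60.1 RPKM in siNC and 53.6, 61.0 and 56.0 RPKM in siQk and was not called (log2 fold change -0.23, -0.41 to -0.05, FDR 0.0518). It was 1 of 6 genes of citrate, malonyl and mitochondrial synthesis, none of which was called by edgeR at the main setting, where 3 had an unadjusted P below 0.05. Over all tested genes 31.0% were called. Singled out after their values were seen, Acsm3 (log2 fold change 0.51, FDR 0.0386) was called higher in 6 of the 14 alternatives and Oxsm (-0.27, FDR 0.0605) lower in 1, and DESeq2 called both.

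Within siNC the mature OL sum was 6035, 5335 and 3455 RPKM in replicates 1, 2 and 3. In the same order Scd1 was at 115, 104 and 101 RPKM, and Dgat2 at 169.6, 95.1 and 90.3 RPKM. Srebf1, at 23.6, 18.8 and 20.4 RPKM, was lowest in replicate 2, and Gpam, at 68.9, 77.5 and 84.7 RPKM, was highest in replicate 3. Other members fell or rose over the replicates as well, such as Elovl7 (62.6, 46.9 and 37.6 RPKM) and Acsl4 (11.3, 16.3 and 16.7 RPKM). The genes named are examples, picked without a rule. Replicate 1 was also the shallowest library, with 3.11% of its tags on Rn45s. With 3 libraries per group no relation between these values was tested.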

How the data were processed

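Poly-A RNA of mOPCs was measured in 6 libraries, 3 siNC and 3 siQk, sorted into groups by the siRNA named in the labels. Per the methods of the authors, paired-end reads of 75 nt were mapped to mm10 by OLego and genes were counted by Quantas (versions, annotation and use of strand not given in the sources used here). The deposited tables hold an estimated count of tags per gene (expected counts, without normalization) and the exon length. The deposited RPKM equal that count divided by the exon length and the library total, as recomputed here, and were used only for levels and shares. Other cell types of the study, isoforms and proteins were not analysed here.

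After rounding of the expected counts to integers, 12505 of 23038 genes had an average logCPM over 0 and were tested in R 4.3.3 by the edgeR (4.0.16, with limma 3.58.1) quasi-likelihood method, with TMM scaling and no term but the group. A call required an unadjusted P under 0.01 together with an FDR (Benjamini-Hochberg) under 0.1. Intervals are 95% intervals from the moderated fit. The smallest two-sided p that exact permutation of 3 and 3 libraries allows for 1 value is 0.1. On simulated counts for 12449 genes of siQk against siNC, 74.7% of 198 changed genes were called and 11.4% of calls were false. In the data, by contrast, 31.0% of the 12505 tested genes were called. Whether the 74.7% and the 11.4% hold for those calls was not tested. Replicates differed by more than sampling noise, so each counted as 1 sample. No block was used, because the study names none. Replicate numbers are shared between the groups, but siNC and siQk libraries with the same number did not deviate together (correlations -0.053, -0.15 and -0.34).

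The members, the wider lipid list, the marker lists and the tests were chosen with earlier results of these data known. All 37 genes are accounted for. Values in every library are given for each called gene and for a list of the main enzymes of each step. Of the wider list, the rule named the 3 lowest and 3 highest fold changes among the called genes and 7 further genes. Only 1 gene of that list was called higher, so the 3 highest include the 2 smallest falls. Other genes named from it were chosen after their values were seen. Of the 90 genes of the wider list 11 were matched by Entrez identifier to older symbols. Promoters and coordinates are from RefSeq, GRCm38.p6, the assembly of mm10. Alternatives were other scalings, filters and thresholds, DESeq2 1.42.0, the replicate block and leaving out each library.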

Additional observations from a re-analysis of the deposited data

How the results depend on the processing

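The 14 alternatives included other scalings (DESeq2 size factors, upper quartile, library size only), other filters, the DESeq2 Wald test, a replicate block and leaving out each library. Among them was also an FDR under 0.05 without the P threshold, a looser rule that called 4616 genes, beside 3879 at the main setting. Of the 18 called genes of the pathway 15 were called under all 14, the exceptions being Fads3 (8 of 14), Elovl7 (9) and Agpat5 (9), and none of the 18 changed sign. Of 658 values for 47 named genes 613 kept the call or its absence, 31 lost the call and 14 gained it. None reversed sign with a call at either setting. The 613 include values of opposite sign for uncalled genes. These were 7 pathway genes (Fasn, Acaca, Elovl2, Elovl4, Acsl4, Agpat1 and Lpin2) and Hacd3 of the wider list, whose sign depended on the setting. Acsl1 was called under 5 alternatives and Agpat4 under 6, the DESeq2 Wald test among them. With the replicate block 16 pathway genes were called, 12 lower and 4 higher, and 2796 genes in all. Fads3, Elovl7 and Agpat5 lost their calls under it and Agpat4 gained one (log2 fold change -0.49).

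Scaling by library size only moved the median of all genes from 0.01 to 0.16 and that of the pathway genes to -0.17, and gave 1365 genes lower and 2989 higher in place of 2149 and 1730. Upper quartile factors gave 1785 lower and 2234 higher. Leaving out 1 library gave 15 to 20 called pathway genes, a median of -0.39 to -0.21, 2478 to 3704 called genes, with 2478 without siQk replicate 1, and 1008 to 1610 higher, with 1008 without siQk replicate 1 and 1104 without siQk replicate 2. The 1 gene of the wider lipid list called higher became 4 with upper quartile factors, 5 with library size only, 4 with the DESeq2 Wald test, 5 without a filter, 3 with filterByExpr, 2 with the replicate block, 4 at an FDR of 0.05 and 1 to 3 without a library (3 without siNC replicate 2, 2 without siNC replicate 1 or 3). The cause of these shifts was not tested. Differences smaller than the intervals given were not detectable with 3 libraries per group.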
